A study of Mus musculus with 36 samples.

Results

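Ceruloplasmin (Cp), a copper-carrying ferroxidase that loads iron onto transferrin, separated 12 of the 36 subcutaneous mouse tumours in this bulk mRNA sequencing study from the rest. The tumours described here were chosen by measured expression and not by their labels. A tumour counted as Cp-high when Cp exceeded 1000 CPM (a gene's counts as a scaled share of all gene counts of the library), and as Cp-low when Cp was at most 1000 CPM and H2-Ea-ps was at most 10 CPM. This gave 12 Cp-high and 12 Cp-low tumours. The other 12 tumours, which expressed H2-Ea-ps, belong to neither side and appear only for reference. Because the sides were selected on expression, every difference between them is given as a description, with no test.

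Each library was made from 1 tumour of a wild-type mouse labelled as 12 weeks old, and the labels name a tumour line and an antibody. MC38 is a colon carcinoma line and PancO2 a pancreatic carcinoma line, both labelled as grown in C57BL/6J mice, and CT26 is a colon carcinoma line labelled as grown in BALB/c mice. Mice were given IgG, anti-CTLA4 or anti-PD-1 at 10 mg/kg. CTLA4 and PD-1 are inhibitory receptors of T cells, and antibodies that block them are used to release T cell responses. Each model is 1 transplanted line, and a library holds RNA of the cancer cells together with that of the host cells in the tumour. In such bulk samples, fewer cells of a type and less RNA per cell cannot be told apart.

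Each labelled model and antibody occurred on both sides. The Cp-high tumours comprised 4 labelled MC38, 3 labelled CT26 and 5 labelled PancO2, and the Cp-low tumours 4, 5 and 3. By antibody, the Cp-high tumours comprised 3 labelled IgG, 4 labelled anti-CTLA4 and 5 labelled anti-PD-1, and the Cp-low tumours 5, 4 and 3. An exact two-sided test of the 2 by 3 table detected no association with the sides (p = 0.873 for model and p = 0.873 for antibody). No library labelled PancO2 anti-PD-1 was Cp-low, whereas the 8 other labelled groups had libraries on both sides. H2-Ea encodes an MHC class II chain that BALB/c mice express and C57BL/6 mice do not. Its gene, H2-Ea-ps, had at most 3 reads in any Cp-high library and at most 1 in any Cp-low library, although 3 Cp-high and 5 Cp-low libraries were labelled as grown in BALB/c mice. Model, antibody and strain are therefore named below only as labelled.

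Depth was similar on the sides. The Cp-high libraries held 13174505 to 41751023 counts assigned to genes (median 27112961) and the Cp-low libraries 23709709 to 34698970. Pearson correlations of log2(CPM + 0.5) between libraries were 0.962 to 0.992 within the Cp-high tumours and 0.963 to 0.994 within the Cp-low tumours, but 0.846 to 0.884 between the sides. The mitochondrially encoded genes took 3.27% to 4.35% of counts in the Cp-high and 2.80% to 3.33% in the Cp-low libraries. No 2 libraries of a side agreed within sampling noise. Each library carries a number of its own in its label, taken here to stand for 1 mouse, which the labels do not state. Only on that reading do p-values of the label tests measure the spread between mice.

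Cp itself lies on chr3:19957054-20009145 (GRCm38). It measured 1389, 1832 and 2168 CPM in the lowest, median and highest Cp-high tumour and 255, 368 and 611 CPM in the Cp-low tumours, with means of 1762 ± 235 and 372 ± 91.8 CPM (SD, n = 12 each). The H2-Ea-expressing tumours lay lower still, at 36.5 to 143 CPM. The tumour just inside the limit was labelled PancO2 IgG 48, with 1389 CPM, and the one just outside was labelled PancO2 IgG 49, with 611 CPM, so no tumour lay near 1000 CPM. The other 2 genes proposed as markers separated the sides more widely. Slc38a3, a transporter of glutamine, asparagine and histidine (chr9:107650634-107669530), measured 27.9, 46.2 and 89.9 CPM in the Cp-high tumours. It had 27 reads over all 12 Cp-low libraries, with at most 0.261 CPM in any. Plch1, a phospholipase C of the eta class that cleaves PIP2 into inositol trisphosphate and diacylglycerol (chr3:63696234-63899472), measured 16.3, 23.7 and 32.2 CPM in the Cp-high tumours. It was at 0 reads in 7 Cp-low libraries and reached 3 reads in the highest. The plot of the 3 genes by tumour shows no overlap between Cp-high tumours and either of the other classes.

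**Figure D1:**
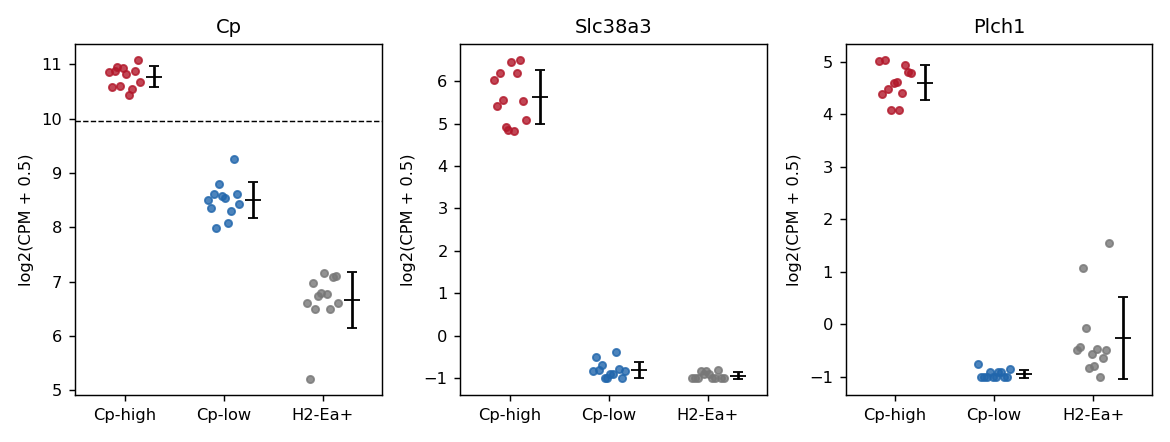
Levels of Cp, Slc38a3 and Plch1, as log2(CPM + 0.5), in the 12 Cp-high, 12 Cp-low and 12 H2-Ea-expressing (H2-Ea+) tumours. Each point is 1 tumour, bars give the mean ± SD and the dashed line marks the Cp limit of 1000 CPM. Cp was chosen for this split, and the Cp-high tumours sit between 1389 and 2168 CPM.

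Differences extended over much of the transcriptome. Of 13844 genes with a mean of at least 1 CPM over the 24 tumours, 1119 (8.08%) were higher in the Cp-high tumours and 912 (6.59%) were higher in the Cp-low tumours, counting genes for which all tumours of one side lay above all of the other and mean log2(CPM + 0.5) differed by at least 1. These shares are the background for every list below. The mean is taken over both sides, so a gene read on 1 side only can reach it through that side alone. The difference (Cp-high minus Cp-low) is on that log2 scale throughout and understates the change of genes near 0. Differences of at least 4 were found for 138 genes higher in the Cp-high and 119 genes higher in the Cp-low tumours. The median difference over all 13844 genes was -0.03.

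Genes counted this way do not overlap in any subset of the tumours by construction, so values within labels describe only the size of the difference. Of the 1119 genes, 970 differed by at least 1 within each of the labelled models taken alone, and 987 within each labelled antibody. Of the 912 genes, 785 and 801 did so.

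Ptn headed the genes higher in the Cp-high tumours. It encodes pleiotrophin, a heparin-binding growth factor, and measured 289, 589 and 851 CPM in the lowest, median and highest Cp-high tumour against at most 0.490 CPM in any Cp-low tumour. Map2, a microtubule-associated protein best known from neuronal dendrites, followed with 241, 470 and 609 CPM against at most 0.944 CPM. Both genes were effectively read on only one side. Krt18, the type I keratin of simple epithelia, measured 215, 285 and 507 CPM against at most 1.45 CPM (difference 8.28). Sema3e (a secreted guidance cue), Syt13 (a synaptotagmin) and Efemp1 (fibulin-3, a matrix protein) differed by 8.27, 8.15 and 7.81. The first 15 also held Gm12606, Ppl, Aqp5, Pi15, Insc, Strc, Vldlr and Aldh3a1, with differences between 6.72 and 8.08. They include periplakin (Ppl) of the cornified envelope and desmosomes, the water channel Aqp5 of glandular epithelia and the aldehyde dehydrogenase Aldh3a1. Vldlr, a lipoprotein and reelin receptor, and Aldh3a1 were also read in the H2-Ea-expressing tumours. Vldlr measured 223 to 407 CPM there, above all Cp-high tumours, and Aldh3a1 18.5 to 90.9 CPM, which overlaps the 37.2 to 95.1 CPM of the Cp-high tumours.

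Amigo2 headed the genes higher in the Cp-low tumours. This adhesion molecule measured 242, 285 and 320 CPM in the Cp-low tumours and at most 0.595 CPM in the Cp-high tumours (difference -8.31). The protocadherin Pcdh18 measured 183, 197 and 246 CPM against at most 0.867 CPM. Grem1, a secreted antagonist of BMPs, measured 121, 318 and 438 CPM against 0.887, 1.44 and 12.7 CPM, the highest Cp-high tumour standing well above the median of its side. Amot (angiomotin, a partner of YAP), Hmga2 (an architectural chromatin protein of embryonic tissue), Dpysl3 and Vcan (versican, a matrix proteoglycan) differed by -6.75, -6.69, -6.55 and -6.45. The rest were Spo11, Acsl6, Bcat1, Evc2, Sdc2, Gfra2, Ptprn and Evc, with differences between -6.21 and -6.45. Evc and Evc2 are neighbouring genes whose products act together in Hedgehog signalling at the cilium, and Spo11 is known as the nuclease that opens meiotic DNA breaks. The plot of the largest differences in each direction shows the gap between the sides for each gene.

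**Figure D2:**
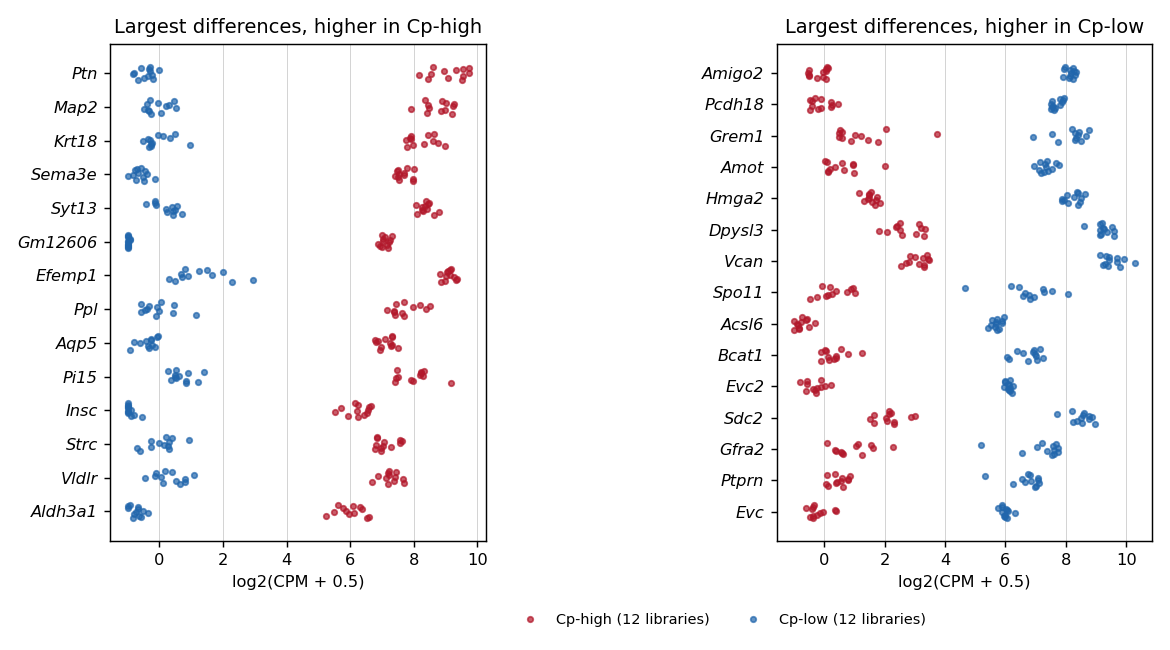
Genes with the largest differences, 14 higher in the Cp-high (left) and 15 higher in the Cp-low tumours (right), among genes with a symbol, no overlap and a median of at least 10 CPM on the higher side. Each point is 1 tumour and the x axis is log2(CPM + 0.5). For Krt18 the Cp-high tumours lie at 215 to 507 CPM and the Cp-low tumours at 0.195 to 1.45 CPM.

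Some genes of epithelial and gut endoderm identity were read almost only in the Cp-high tumours, whereas others overlapped or were higher in the Cp-low tumours. Keratins 8 and 18 pair into the filaments of simple epithelia, and Pdx1 and Cdx2 are transcription factors that pattern the pancreas and intestine. Of 13 epithelial genes that reached the mean of 1 CPM (31 listed), 5 were higher in the Cp-high and 0 in the Cp-low tumours, with a median difference of 0.57. Krt18 and Krt19 reached this mean only through the Cp-high tumours, so these counts depend on that filter. Krt19, a ductal keratin, measured 6.03, 21.3 and 51.3 CPM against at most 0.930 CPM. The tight junction gene Cldn1 measured 4.28, 14.8 and 33.3 CPM against at most 2.18 CPM. Krt8, the partner of Krt18, overlapped between the sides, at 350 to 622 CPM against 56.8 to 420 CPM. The epithelial adhesion genes were low on both sides: Cdh1 (E-cadherin) measured 3.62 to 18.1 and 2.32 to 12.4 CPM, and Epcam at most 4.38 and 0.475 CPM.

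Pdx1, a regulator of pancreas and duodenum, measured 38.4, 55.6 and 63.9 CPM in the Cp-high tumours and at most 0.112 CPM in the Cp-low tumours. Onecut2 was also higher (difference 3.46), whereas Gata6 and Cela1 of the same list were higher in the Cp-low tumours (-3.71 and -2.15). In all, 3 of 8 pancreatic lineage genes that reached the mean of 1 CPM (25 listed) were higher on the Cp-high side and 2 on the Cp-low side. The list thus did not go one way. Of 6 intestinal lineage genes that reached this mean (22 listed), 2 were higher in the Cp-high tumours. Pdx1 and Cdx2 reached it only through the Cp-high tumours, so the counts of both lists depend on that filter. Cdx2, an intestinal homeobox factor, measured 5.59, 8.14 and 13.7 CPM and had 0 reads in every Cp-low library, which makes its median at least 64.4-fold higher than the level that 3 reads give in the shallowest Cp-low library. Lgr5, a receptor of intestinal stem cells, measured 16.02, 35.2 and 49.9 CPM against at most 1.19 CPM. Other genes of these lineages were at or near 0 on both sides, among them Vil1 and the acinar gene Ptf1a.

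The mesenchymal transition list held 3 genes higher on each side among 20. Twist1, a transcription factor of mesenchyme, measured 47.5, 53.8 and 58.8 CPM in the Cp-low tumours against 0.304, 0.636 and 2.64 CPM in the Cp-high tumours. Prrx1 measured 132, 175 and 192 CPM against 2.79, 5.04 and 14.8 CPM, and Snai2 differed by -1.62. The Cp-high tumours in turn had more fibronectin, Fn1 measuring 8443, 9876 and 12544 CPM against 2530, 3767 and 4421 CPM, and more Cdh2 and Tgfb3 (1.88 and 1.36). Vim overlapped between the sides.

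Hox genes, which record position along the body axis, lay mostly on the Cp-low side. Of 24 Hox genes with a mean of at least 1 CPM, 11 were higher in the Cp-low tumours and 3 in the Cp-high tumours, and the median difference was -0.71. The summed level of the 39 listed genes was 307 to 380 CPM in the Cp-low and 111 to 160 CPM in the Cp-high tumours. Hoxc11 measured 17.3, 20.4 and 24.6 CPM in the Cp-low and at most 0.393 CPM in the Cp-high tumours, and Hoxa11, Hoxc13 and Hoxa9 differed by -4.79, -4.06 and -3.89. Hoxd13 showed the reverse, with 2.92, 4.13 and 5.68 CPM in the Cp-high tumours and 0 reads in every Cp-low library. Hoxc11, Hoxa11 and Hoxd13 reached the mean of 1 CPM only through the side where they were higher, so the counts depend on that filter. Strand use in counting is not stated, so reads of Hox genes and of their antisense transcripts may not have been kept apart.

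Growth control genes separated the sides at several loci. Among 46 tumour suppressors and oncogenes, 9 were higher in the Cp-low and 3 in the Cp-high tumours (median difference -0.26). Hmga2 measured 233, 318 and 394 CPM against 1.71, 2.37 and 3.13 CPM. Mycn, a MYC family factor, measured 19.3, 33.8 and 52.9 CPM in the Cp-low and at most 0.360 CPM in the Cp-high tumours. Fgfr1 measured 271, 320 and 407 CPM against 5.47, 7.84 and 17.6 CPM, and Lin28b, which blocks let-7 maturation, differed by -2.97. On the Cp-high side, Ccnd2, Egfr and Tgfbr2 were higher by 1.92, 1.26 and 1.19. Trp53 and Myc were read on both sides and differed by -0.32 and -0.65.

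Mtap, the methionine salvage enzyme encoded beside the Cdkn2a tumour suppressor locus, measured 5.98, 8.34 and 10.2 CPM in the Cp-high and 289, 332 and 412 CPM in the Cp-low tumours. It lies on chr4:89137122-89181081. The next gene with reads, the long noncoding RNA Gm12606 (chr4:89235699-89273403), was the reverse, with 118, 134 and 160 CPM in the Cp-high tumours and 2 reads in all over the Cp-low libraries. Cdkn2a and Cdkn2b, which follow on the same chromosome, were near 0 on both sides, with medians of 0.463 and 0.744 CPM in the Cp-high tumours. Klhl9, which precedes Mtap on the chromosome, measured 80.7 to 141 CPM in the Cp-high tumours and differed by -0.19. Wincr1, a noncoding RNA between Klhl9 and Mtap, differed by 0.63 with overlap. Focad and Hacd4, which precede Klhl9, were lower in the Cp-high tumours (-0.91 and -0.84), Focad with no overlap. Mtap and Gm12606 thus differed in opposite directions, and by more than these neighbours.

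Whole chromosomes were also shifted. The median difference of protein-coding genes was 0.44 over the 448 genes of chromosome 19 and 0.32 over the 401 genes of chromosome 16, and -0.39 over the 676 genes of chromosome 8, -0.38 over the 624 of chromosome 3 and -0.32 over the 464 of chromosome 13. Every Cp-high tumour showed these 5 shifts. The median for chromosome 19, set against the mean of the Cp-low tumours, was 0.36 to 0.55 in the 12 Cp-high tumours and -0.05 to 0.04 in the 12 Cp-low tumours. Chromosome 3, which carries Cp and Plch1, had a median below 0, opposite in sign to both genes. DNA copy number was not measured.

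**Figure D3:**
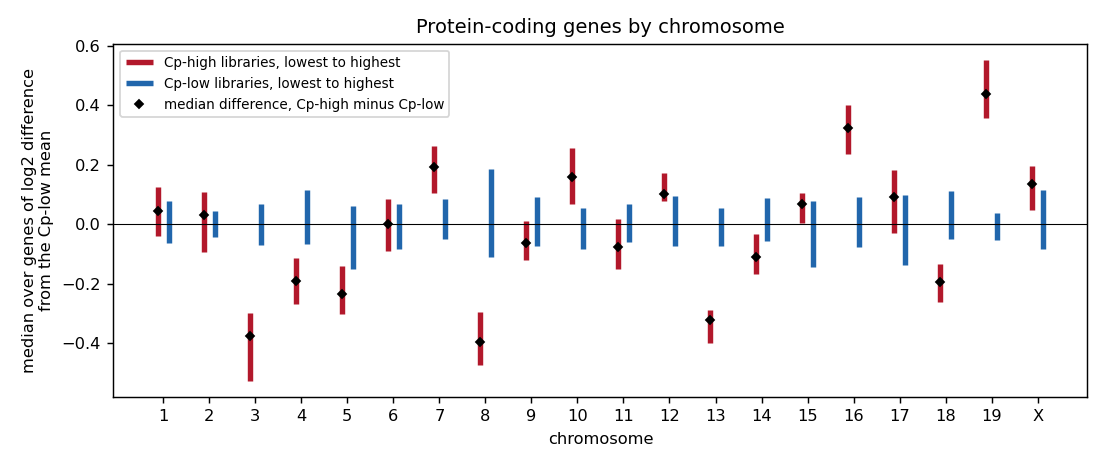
Median over protein-coding genes of the log2 difference from the mean of the Cp-low tumours, by chromosome. Red and blue lines span the lowest to the highest tumour of the Cp-high and Cp-low sides, and diamonds give the median difference between the sides. Chromosome 19 lies highest, at 0.44, and chromosome 8 lowest, at -0.39.

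Secreted regulators were divided between the sides. Of 24 TGF-beta, BMP and FGF ligands and antagonists, 6 were higher on each side. Inhbb, the activin B subunit, measured 260, 367 and 457 CPM in the Cp-high and 8.64, 13.3 and 21.6 CPM in the Cp-low tumours. The activin antagonist Fst was higher on the same side (difference 3.06), as were Inha (3.15) and Gdf15 (2.84). Grem1, Fgf7, Bmp4 and Tgfa were higher in the Cp-low tumours (-6.94, -3.91, -3.21 and -3.14). Of 28 Wnt, Notch and Hedgehog genes, 5 were higher in the Cp-high and 6 in the Cp-low tumours. Wnt5a, a ligand of noncanonical Wnt signalling, measured 33.8, 180 and 221 CPM in the Cp-low tumours and 0.380, 1.55 and 3.90 CPM in the Cp-high tumours. The Wnt antagonist Dkk2 was likewise higher on the Cp-low side (-5.60), whereas the receptor Notch3 (4.71) and Wnt10a (2.52) were higher on the Cp-high side.

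Of 21 haematopoietic growth factors and cytokines, 7 were higher in the Cp-high tumours and 1, Lif, in the Cp-low tumours. Angpt1, the ligand of the endothelial receptor Tie2, measured 420, 560 and 832 CPM against 5.59, 10.1 and 23.1 CPM. Il33, an alarmin of epithelial and stromal cells, measured 137, 215 and 309 CPM against 1.79, 7.70 and 24.5 CPM. Pgf, Il18, Vegfd, Il16 and Kitl differed by 1.48 to 2.13. Although 7 of 21 members were higher, the median difference of the list was -0.26. Igf2, a fetal growth factor, measured 394, 523 and 618 CPM against 18.5, 33.5 and 122 CPM, and its clearance receptor Igf2r was lower in the Cp-high tumours (-2.85). With Plagl1, these were the separated genes among 8 imprinted and oncofetal genes.

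Of 24 matrix proteases and inhibitors that reached the mean of 1 CPM (28 listed), 8 were higher in the Cp-low tumours. Mmp28 and Adamts1 were the 2 higher in the Cp-high tumours. Mmp9, a gelatinase of neutrophils, macrophages and tumour cells, measured 116, 476 and 594 CPM in the Cp-low and 5.01, 18.4 and 40.4 CPM in the Cp-high tumours. Adamts9 measured 63.6, 105 and 204 CPM against 2.60, 3.49 and 6.09 CPM. Of 22 fibroblast genes, Pdpn, Col3a1 and Col5a1 were higher in the Cp-low tumours (-3.09, -2.71 and -1.23) and Lum and Dcn in the Cp-high tumours (3.26 and 1.44). Col3a1 measured 2699, 4232 and 7904 CPM in the Cp-low and 424, 670 and 1204 CPM in the Cp-high tumours.

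Metabolic genes next to the markers gave a mixed picture. Phospholipase C and inositol phosphate enzymes were higher in the Cp-high tumours for 7 of 31 and in the Cp-low tumours for 2. Beside Plch1, Plcb1 measured 69.5, 85.7 and 93.6 CPM against 1.60, 3.26 and 18.1 CPM, Plcg2 161, 211 and 244 CPM against 21.9, 28.6 and 37.5 CPM, and Itpk1 differed by 2.18. Among 27 amino acid transporters, Slc38a3, Slc7a3 and Slc1a3 were higher in the Cp-high tumours, whereas 2 relatives of Slc38a3 were higher in the Cp-low tumours. These were Slc38a1, with 105, 126 and 183 CPM against 12.9, 17.1 and 23.9 CPM, and Slc38a4 (-3.62). Of 21 iron and copper genes, only Cp was higher in the Cp-high tumours, which was fixed by the choice of the sides on Cp. The metalloreductases Steap4 and Steap1 and transferrin (Trf) were higher in the Cp-low tumours (-2.44, -1.45 and -1.31). The ferroxidases Heph and Hephl1, relatives of Cp, stayed at or below 1.15 CPM on both sides.

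Of 31 pyrimidine and uridine nucleotide genes, 3 were higher in the Cp-high (Cmpk2, Slc29a1 and Upp2) and 2 in the Cp-low tumours (Dctd and Ctps). Both counts lie near the shares over all genes, 8.08% and 6.59%. Cda, the cytidine deaminase that the study followed, measured 9.11, 14.3 and 21.3 CPM in the Cp-high and 3.04, 4.65 and 9.36 CPM in the Cp-low tumours. Its difference was 1.47, but the sides overlapped by a narrow range. The Cp-low and H2-Ea-expressing tumours lay close together for Cda, with medians of 4.65 and 5.61 CPM. Among 23 one-carbon and serine enzymes, Shmt1, Mtr and Mtrr were higher in the Cp-low tumours and Aldh1l1 in the Cp-high tumours. Of 31 glycolysis and hypoxia genes, 4 were higher in the Cp-high tumours, with Car9 at 11.2, 33.2 and 63.7 CPM against 1.92, 3.02 and 4.17 CPM and Aldoc, Adm and Pfkfb4 higher by 2.42, 1.98 and 1.23. The lactate exporter Slc16a3 was higher in the Cp-low tumours (-1.89). Slc2a1 and Vegfa overlapped, at -0.49 and -0.26.

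Of 31 cell cycle genes, Cenpe and Foxm1 were higher in the Cp-low tumours and none in the Cp-high tumours. The median difference of the list was -0.58 against -0.03 for all genes. Mki67 measured 329, 461 and 560 CPM in the Cp-high and 519, 738 and 833 CPM in the Cp-low tumours, with a small overlap.

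**Figure D4:**
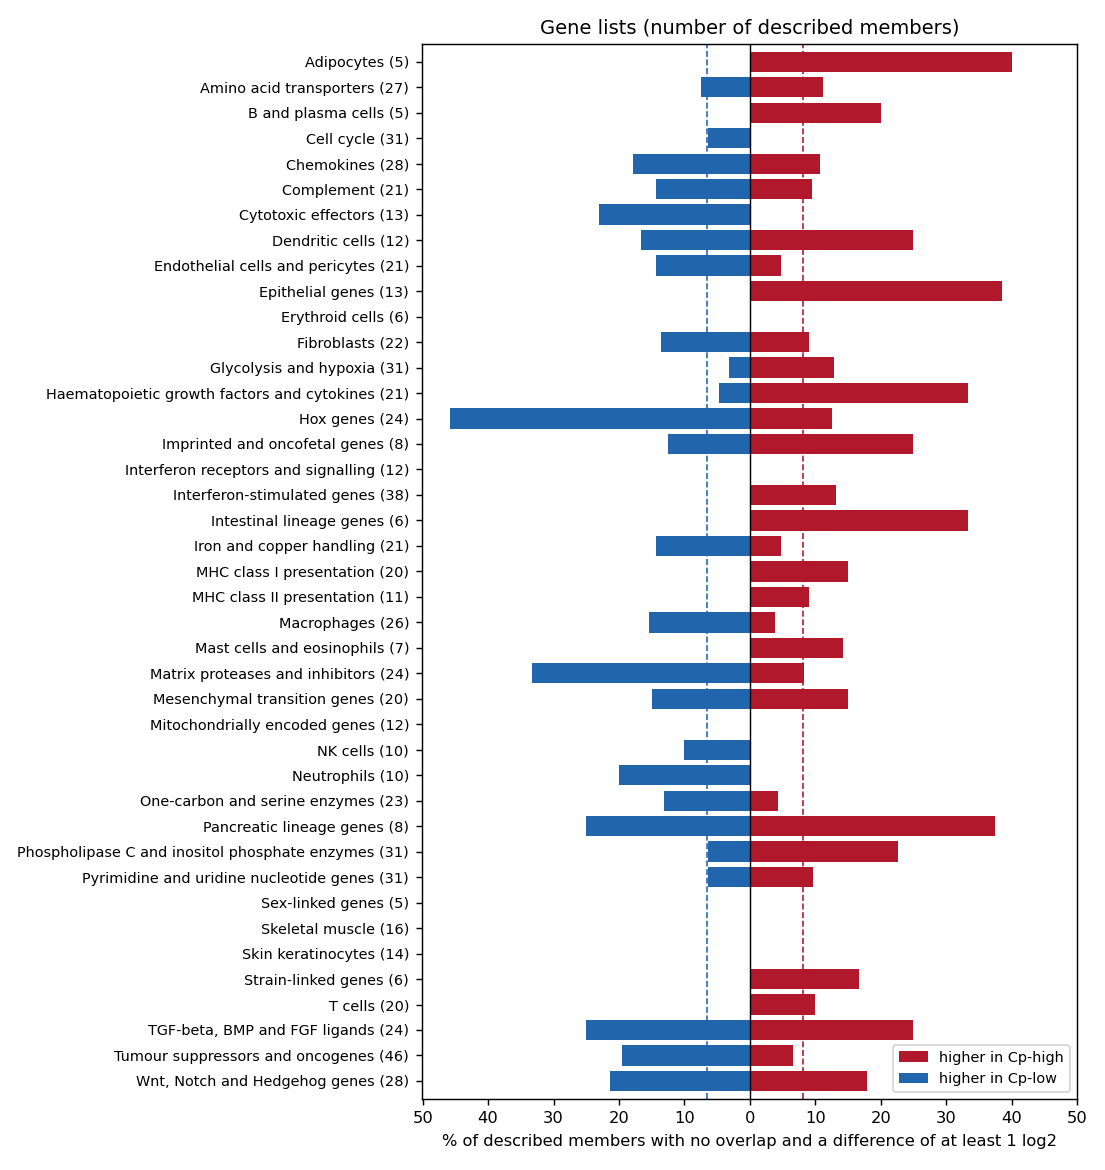
Share of the described members of each gene list that were higher in the Cp-high tumours (red, right) or in the Cp-low tumours (blue, left), with no overlap and a difference of at least 1 on the log2 scale. Dashed lines mark the shares over all 13844 genes, 8.08% and 6.59%. Hox genes reach furthest to the left, with 11 of 24, and 5 of 13 epithelial genes lie on the right. Both lists hold genes that reached the mean of 1 CPM through 1 side only.

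Antigen presentation genes were higher in the Cp-high tumours on average but mostly overlapped. MHC class II molecules display peptides to CD4+ T cells and are switched on by Ciita in dendritic cells, B cells and macrophages and, under interferon gamma, in tumour cells. Only H2-DMb1 of 11 class II genes met the criterion, at 56.0, 121 and 194 CPM against 10.6, 23.9 and 47.0 CPM. The median difference of the list was nevertheless 2.19. H2-Eb1 measured 279, 923 and 1361 CPM in the Cp-high and 10.7, 85.4 and 393 CPM in the Cp-low tumours. Ciita measured 14.2, 60.1 and 115 CPM against 1.34, 6.74 and 29.2 CPM. The Cp-low tumours thus spread widely for these genes, and the library labelled MC38 IgG 2 was the highest of them for H2-Eb1, H2-Aa, H2-Ab1 and Cd74.

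Of 20 MHC class I genes, B2m, Psmb8 and H2-M3 were higher in the Cp-high tumours (1.22, 1.16 and 1.49). B2m, the light chain of class I, measured 2162, 3199 and 4843 CPM against 843, 1379 and 1976 CPM. Of 38 interferon-stimulated genes, 5 were higher in the Cp-high and 0 in the Cp-low tumours, with a list median of 1.12. They were Ifit1, Ifit2, Ifit3 and Ifit3b, whose proteins bind foreign RNA, and the nucleotide kinase Cmpk2. Ifit1 measured 79.4, 189 and 631 CPM against 32.7, 49.7 and 69.1 CPM. None of the 12 interferon receptors and signalling genes met the criterion.

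Because these genes lay higher together, the 250 bases before their RefSeq starts were searched on both strands for GAAA, any 2 bases and GAAA again, the core of the interferon-stimulated response element. Each match is in capitals. Ifit1, Ifit3, Ifit3b and B2m hold it. The stretches are chr19:34640765-34640833, chr19:34583353-34583436, chr19:34607749-34607832 and chr2:122147528-122147577, all on the + strand of GRCm38.p6.
Ifit1: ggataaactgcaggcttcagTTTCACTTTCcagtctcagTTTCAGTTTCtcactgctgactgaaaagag
Ifit3: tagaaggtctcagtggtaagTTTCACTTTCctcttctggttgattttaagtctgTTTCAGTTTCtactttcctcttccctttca
Ifit3b: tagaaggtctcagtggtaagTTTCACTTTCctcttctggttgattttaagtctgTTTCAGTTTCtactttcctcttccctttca
B2m: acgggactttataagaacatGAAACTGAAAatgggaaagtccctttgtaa
Ifit1, Ifit3 and Ifit3b hold 2 matches each and B2m 1. The stretches of Ifit3 and Ifit3b are the same letter for letter, and reads of these near-identical genes may have been split or set aside in counting. No match was found for Ifit2, Cmpk2, Psmb8 and H2-M3 in their windows, so 4 of the 8 genes held the motif there. The motif occurs in the 300 bases around the starts of 3.99% of all 27025 genes, 4.98% of the 783 genes higher in the Cp-high tumours and 3.19% of the 659 genes higher in the Cp-low tumours.

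Leukocyte genes did not move as 1 block. Ptprc (CD45), found on all leukocytes, measured 89.1, 133 and 186 CPM in the Cp-high and 92.2, 126 and 204 CPM in the Cp-low tumours. Of 20 T cell genes, Tcf7 and Foxp3 were higher in the Cp-high tumours (1.48 and 1.40). The other 18 did not meet the criterion, but all 20 had a difference above 0, with a list median of 1.12. The summed level of the list was 158 to 331 CPM in the Cp-high and 42.1 to 190 CPM in the Cp-low tumours. Cd8a overlapped, at 11.9 to 57.9 and 0.851 to 36.3 CPM. Of 13 cytotoxic effector genes 3 went the other way, Gzmd, Eomes and Gzme being higher in the Cp-low tumours (-2.61, -2.27 and -1.76), as was Itga2 of the NK cell list (-1.78). Gzmd and Gzme are close copies whose reads may not be separable. Of 5 B and plasma cell genes, Ighm, the IgM heavy chain, was higher in the Cp-high tumours (2.31).

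Macrophage genes overlapped for the most part, with a summed level of 5122 to 8394 CPM in the Cp-high and 5035 to 8080 CPM in the Cp-low tumours. The pan-macrophage genes Adgre1 and Csf1r differed by -0.06 and -0.32. Of 26 macrophage genes, 4 were higher in the Cp-low and 1 in the Cp-high tumours, against 6.59% and 8.08% of all genes, and 21 were neither. Mrc1 (CD206), Arg1, Msr1 and Mertk, receptors and an enzyme often read in alternatively activated macrophages, were higher in the Cp-low tumours. Mrc1 measured 245, 310 and 662 CPM against 24.3, 55.6 and 95.1 CPM, and Arg1 282, 394 and 568 CPM against 14.9, 69.4 and 135 CPM. Spp1 (osteopontin) was higher in the Cp-high tumours (1.25). In the neutrophil list Mmp9 and Mmp8 were higher in the Cp-low tumours, whereas S100a8, S100a9, Csf3r and Cxcr2 overlapped with differences of 0.06, -0.13, 0.81 and 0.49. The summed level of that list, which includes Mmp9, was 67.9 to 253 CPM in the Cp-high and 213 to 915 CPM in the Cp-low tumours. Mmp9 alone measured 5.01 to 40.4 and 116 to 594 CPM and made up most of the sum in the Cp-low tumours. As Mmp9 is also a gene of macrophages and tumour cells, the sum is no measure of neutrophils. Among 12 dendritic cell genes, Xcr1, Flt3 and Siglech were higher in the Cp-high tumours (2.72, 1.99 and 1.38) and Zbtb46 and Tcf4 in the Cp-low tumours. Of 7 mast cell and eosinophil genes, Mcpt2 was higher in the Cp-high tumours, with 4.33, 19.2 and 62.04 CPM against at most 3.12 CPM.

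Chemokines recruit these cells and differed in both directions. Cxcl5, a ligand of the neutrophil receptor CXCR2, measured 51.9, 129 and 745 CPM in the Cp-high and 0.211, 2.60 and 19.96 CPM in the Cp-low tumours. Cxcl1, a ligand of the same receptor, was the reverse, at 0.0759, 0.320 and 5.83 CPM against 7.04, 49.1 and 143 CPM. The monocyte attractant Ccl2 measured 14.4, 50.4 and 127 CPM in the Cp-high and 243, 394 and 631 CPM in the Cp-low tumours, and Ccl6, Ccl9 and Cx3cl1 were also higher in the Cp-low tumours. Ccl28 and Ccl22 were higher in the Cp-high tumours (2.31 and 2.03). In all, 3 of 28 chemokines were higher in the Cp-high and 5 in the Cp-low tumours. Cxcl9, which interferon gamma induces, overlapped at 73.9 to 446 and 2.46 to 187 CPM. Of 21 complement genes, 2 were higher in the Cp-high tumours, among them Masp1 (1.99), and Clu, C2 and C5ar1 were higher in the Cp-low tumours.

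**Figure D5:**
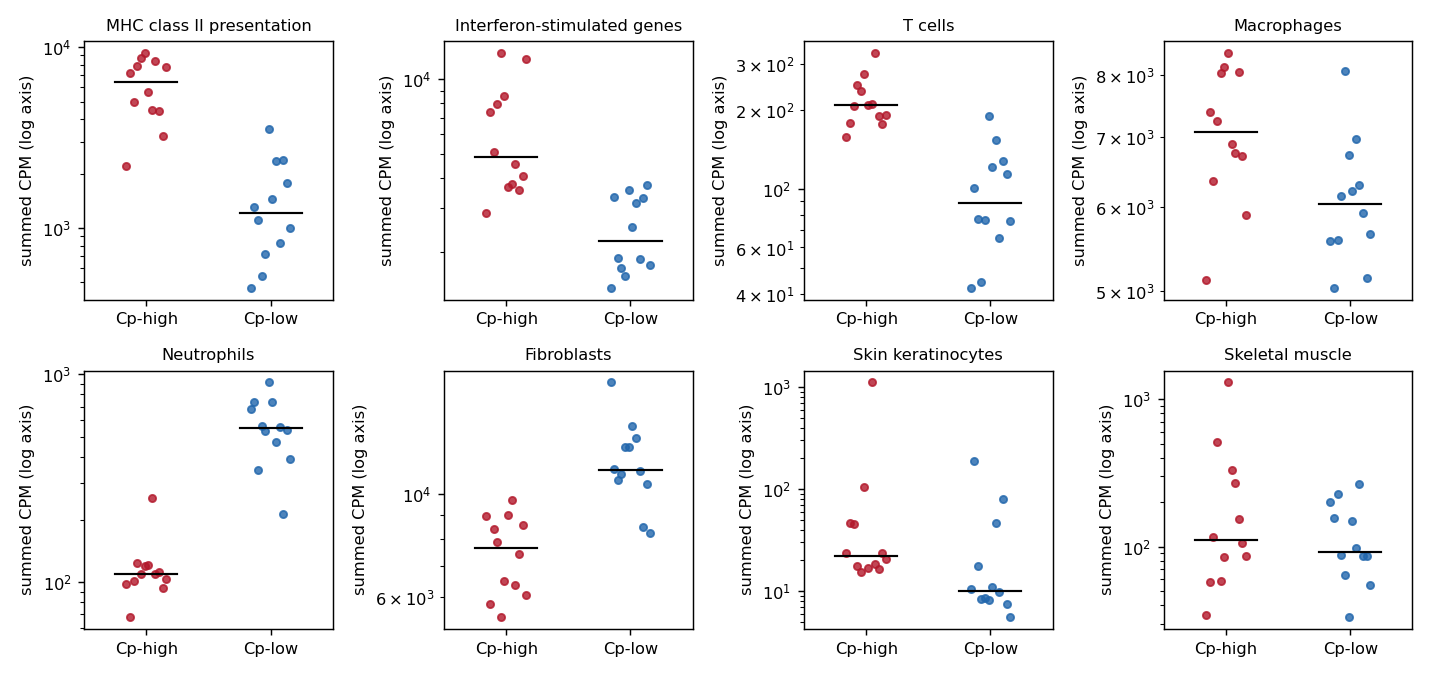
Summed CPM of 8 gene lists in each tumour of the 12 Cp-high and 12 Cp-low tumours, on log axes, with the median as a line. T cell genes summed to 158 to 331 CPM in the Cp-high and 42.1 to 190 CPM in the Cp-low tumours, and skin and skeletal muscle genes were high in single tumours of either side. The neutrophil sum includes Mmp9, which makes up most of it in the Cp-low tumours.

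Genes of tissue around the tumours varied widely within the sides. No skin keratinocyte, skeletal muscle or erythroid gene met the criterion. The summed skin list ranged from 15.5 to 1108 CPM in the Cp-high and from 5.56 to 187 CPM in the Cp-low tumours, the highest being the library labelled PancO2 IgG 48, which is also the Cp-high tumour with the least Cp. The summed muscle list ranged from 34.4 to 1300 CPM and from 33.2 to 264 CPM. In the Cp-high tumours the 3 most variable genes above a mean of 10 CPM were Tchh, Myh4 and Krt1, of hair, muscle and epidermis, with SDs of 2.79, 2.70 and 2.66 on the log2 scale against a median SD of 0.16. In the Cp-low tumours Acta1, Cxcl9 and Apol6 varied most (2.14, 2.14 and 1.89). Of 21 endothelial and pericyte genes, Cspg4, Abcc9 and Kcnj8 were higher in the Cp-low and Notch3 in the Cp-high tumours, and Pecam1 overlapped. Of 5 adipocyte genes, Plin4 and Pparg were higher in the Cp-high tumours (4.58 and 2.42), and the part of fat tissue in this was not tested. With the 7 libraries left out in which either sum exceeded 200 CPM, 1118 genes were higher in the Cp-high and 990 in the Cp-low tumours, of which 1068 and 878 were among the 1119 and 912.

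The library labelled PancO2 IgG 49, the Cp-low tumour with the most Cp, was the highest of the Cp-low tumours for 246 of the 1119 genes higher in the Cp-high tumours, more often than any other library. Without it, 1149 and 941 genes were counted. It had 0.0844 CPM of Slc38a3, within the range of the other Cp-low tumours.

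Among 6 genes listed as strain-linked, Raet1e, a ligand of the NK cell receptor NKG2D, was higher in the Cp-high tumours. It measured 25.9, 28.7 and 32.3 CPM against at most 1.19 CPM. The other 5 met the criterion on neither side, and differences of strain and of tumour line cannot be told apart here. None of 5 sex-linked and none of 12 mitochondrially encoded genes met the criterion.

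The H2-Ea-expressing tumours matched neither side throughout. One of them, labelled PancO2 anti-PD-1 71, stood apart, with 15.7% of counts from mitochondrially encoded genes against at most 4.27% in the other 11, and a highest correlation of 0.866 with any of them. Of the 1119 genes higher in the Cp-high tumours, 739 (66.0%) were also above every H2-Ea-expressing tumour, and for 247 (22.1%) every H2-Ea-expressing tumour lay above every Cp-low tumour. Of the 912 genes higher in the Cp-low tumours, 415 (45.5%) were above every H2-Ea-expressing tumour and 367 (40.2%) were genes for which these tumours too lay above every Cp-high tumour. Without that library the 4 counts were 841, 302, 499 and 417. The 2 counts of each side are not exclusive, since a gene with the H2-Ea-expressing tumours between the sides enters both. Among the genes higher in the Cp-low tumours, Amigo2, Grem1, Bcat1 and Ptprn were of the second kind only, with H2-Ea-expressing medians of 361, 325, 98.1 and 145 CPM. Acsl6 and Spo11 were of the first kind only, with medians of 0.0711 and 1.13 CPM. Pcdh18 was of both kinds, at 49.5 to 78.0 CPM in the H2-Ea-expressing tumours.

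The labels, which the rule did not use, were tested within each side on the read counts. With edgeR's quasi-likelihood F test and Benjamini-Hochberg adjustment, labelled antibody gave 0 of 17143 genes at an adjusted p under 0.05 in the Cp-high tumours (0.0%), with 847 genes at an unadjusted p under 0.05. DESeq2 called 27 genes and limma-voom 0. Labelled model gave 0 of 17143 genes in the Cp-high tumours (736 unadjusted, DESeq2 33, limma-voom 0) and 0 of 16738 in the Cp-low tumours (960 unadjusted, DESeq2 17, limma-voom 0). The difference in antibody effect between the sides gave 0 of 17498 genes (1657 unadjusted, DESeq2 78, limma-voom 0). Neither Cp, Slc38a3 nor Plch1 was called for labelled antibody or model in the Cp-high tumours, with edgeR adjusted p of 0.953, 0.974 and 0.953 for antibody. These tumours were chosen on Cp, so its test covers only the range that the rule left and nothing is concluded from it. These counts say which genes passed and do not show that the labels were without effect.

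Labelled antibody in the Cp-low tumours gave 1 of 16738 genes (0.00597%), with 1327 at an unadjusted p under 0.05, DESeq2 159 and limma-voom 1. It was Acod1, which makes itaconate in activated macrophages and which is named here after its values were seen (edgeR adjusted p = 0.00692). Acod1 measured 23.7, 11.4, 15.4, 18.9 and 17.9 CPM in the 5 Cp-low tumours labelled IgG and 14.9, 9.93, 5.02 and 7.15 CPM in the 4 labelled anti-CTLA4. The 3 labelled anti-PD-1 were lowest, at 4.34, 2.78 and 1.58 CPM, with no overlap with either other group. Of these, 1 was labelled MC38, 2 CT26 and 0 PancO2, so the antibody and model labels were not balanced. The antibody labels come with strain labels that the H2-Ea-ps reads did not follow, so an effect of the antibody itself was not tested. No gene was called when labelled model was left out of the fit (smallest edgeR adjusted p of any gene = 0.270) or without the library labelled MC38 anti-PD-1 19 (0.0559). Without the library labelled CT26 IgG 24 the count was 28 genes, and without MC38 anti-CTLA4 11 it was 12, Acod1 included both times. In the Cp-high tumours Acod1 measured 9.93, 21.9 and 102 CPM.

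Among the 12 Cp-high tumours, the markers were compared with Ptprc as a measure of leukocyte RNA. Pearson's r was -0.291 for Cp (permutation p = 0.358), -0.287 for Slc38a3 (p = 0.362) and -0.577 for Plch1 (p = 0.0517), and Spearman's rho was -0.217, -0.182 and -0.545 (p = 0.499, 0.573 and 0.0708). Adjusted over the 3 relations, the p for Plch1 was 0.155 by Pearson's r and 0.212 by Spearman's rho. Without the 2 tumours farthest from the median of Ptprc, r was -0.109, -0.427 and -0.456 (n = 10). None passed the adjustment. The tumours were chosen on Cp, so its r describes only the range above the limit. Each labelled model held at most 5 of these tumours, too few to give r within a model.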

How the data were processed

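One poly-A selected library was made by the authors from TRIzol RNA of each end-stage tumour, with a TruSeq kit per the labels. The study's methods name a stranded KAPA kit only in a section on unique mutations, which need not cover these libraries. The authors mapped reads to GRCm38/mm10 with TopHat and Bowtie and deposited unnormalised HTSeq counts for each Ensembl gene (the submitters' processing notes list FastQC 0.11.5 and HTSeq 07.2). HTSeq sets aside reads with several positions, so close copies are undercounted, and whether counting used strand is not given in the sources used here. The 5 summary lines, 44.8% to 63.4% of reads in these 24 libraries, were left out. Symbols were found for 32609 of 37417 identifiers, with coordinates from GENCODE M21 (GRCm38) and promoters from RefSeq (GRCm38.p6).

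CPM was the count divided by the library total. Sides were described by mean log2(CPM + 0.5) over genes with a mean of at least 1 CPM. Depth was 13174505 to 41751023 counts, so 3 reads correspond to 0.0719 to 0.228 CPM. Limits from a count of 0 cover counting error only. The members, the 41 gene lists and the choice of genes to name were made with earlier results of these data known. Named were the 3 markers, up to 15 genes per direction with the largest difference, no overlap and a median of at least 10 CPM, and up to 4 separated genes per list, with well known members otherwise. A few genes that the rule names are not reported here, 1 of them among the largest differences.

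Labels were tested with edgeR 4.0.16 in R 4.3.3 (filterByExpr, TMM, robust quasi-likelihood F test over both terms of a label, the other label as covariate). DESeq2 1.42.0, limma-voom 3.58.1 (the study's methods name limma), other scalings, filters, pseudocounts and limits, and leaving out libraries were alternatives. Correlations used 100000 permutations, two-sided, and tables an exact test, in Python 3.11.15 with numpy 2.4.6, pandas 2.3.3 and scipy 1.17.1. Figures were drawn with matplotlib 3.10.9. The steps were tested on simulated data.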

Additional observations from a re-analysis of the deposited data

Results flagged for a closer look

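Within the labelled antibody groups of 4 or 5 tumours on each side, the 3 markers and the summed T cell, macrophage, skin and muscle lists were checked for a tumour far from the others of its group (Dixon's test). Of 28 combinations, 5 had one. Chance flags about 1 in 20 groups, and the 5 are no measure of an excess, since 2 concern Cp, on which the sides were chosen, and 1 is set against tumours all at 0. The Cp-low tumour labelled PancO2 IgG 49 had 611 CPM of Cp, against 327 to 391 CPM in the other tumours labelled IgG. The Cp-high tumour labelled PancO2 anti-CTLA4 58 had 1877 CPM of Cp, against 1500 to 1563 CPM in the other 3 of its group. The Cp-low tumour labelled CT26 IgG 24 had 0.0912 CPM of Plch1, which is 3 reads, against 0 in the other 4. The Cp-high tumour labelled MC38 anti-PD-1 18 had 1300 summed CPM of skeletal muscle genes, against 85.2 to 116 CPM in its group. The Cp-high tumour labelled CT26 anti-CTLA4 36 had 46.1 summed CPM of skin keratinocyte genes, against 15.5 to 18.3 CPM.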

How the results depend on the processing

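The counts of 1119 and 912 genes stayed within 1.5 times under other scalings, pseudocounts and filters, with overlap allowed, without skin- or muscle-rich libraries (chosen after seeing the data) and without each library in turn, where they ran from 1097 to 1149 and from 904 to 941. TMM scaling kept 1112 and 882 of the genes, and moved the median difference of all genes from -0.03 to -0.01. A Cp limit of 500 CPM, which moves the tumour labelled PancO2 IgG 49 to the Cp-high side, gave 272 and 246 genes (244 and 215 of them among the 1119 and 912), and one of 2000 CPM, which leaves 1 Cp-high tumour, gave 145 and 116 (107 and 69). The differences of the 3 markers and the 30 largest kept their sign under both scalings, both pseudocounts and both limits, the alternatives run for them. Their size moved by more than the spread between tumours for 23 and 29 of 33 with pseudocounts of 0.1 and 2 CPM (Slc38a3 from 8.23 to 4.62, Plch1 from 7.66 to 3.67) and for 26 and 33 with the limits.

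In the label tests, DESeq2 called 27 (antibody, Cp-high), 159 (antibody, Cp-low), 33 (model, Cp-high), 17 (model, Cp-low) and 78 genes (antibody by side). The cause of the difference from edgeR was not tested. Without a filter beyond 1 count, 1, 13 and 1 genes were called for antibody in the Cp-high, antibody in the Cp-low and model in the Cp-low tumours, and without labelled model as covariate 0 for antibody in the Cp-low tumours. Leaving out single libraries gave 0 to 28 genes for antibody in the Cp-low tumours, 0 to 10 for antibody by side (10 without MC38 IgG 7 and 4 without MC38 anti-PD-1 18), and 0 to 0 for the other label tests. The 3 marker correlations stayed above the adjusted threshold under each alternative. The r of Cp turned to 0.031 against the T cell and macrophage sums once the 2 farthest tumours were left out. Leaving out PancO2 anti-PD-1 71 does not touch the sides, which do not hold it, and was run after seeing the data for the counts against the H2-Ea-expressing tumours, which stayed within 1.5 times. No paired analysis was possible because the number in each label belongs to 1 library.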
